A study of Mus musculus with 12 samples.

Results

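The regions described here are 909 places in the mouse genome where the peaks of HIF1A and of its partner ARNT coincided in cells grown at 20% O2. The study mapped both proteins in N1E115, a neuroblastoma line of the mouse, by ChIP-seq, in which DNA bound by a protein is pulled down with an antibody and sequenced. A reproducible region was a stretch of merged peaks of 1 antibody at 1 oxygen level with a peak in both of its replicate lists. At 20% O2 there were 1647 such ARNT regions and 4275 such HIF1A regions, and the 909 co-bound regions are the ARNT regions that shared at least 1 bp with a HIF1A region. They are 55.2% of the ARNT regions. The number depends on the shortest list: without ARNT replicate 2 at 20% O2, 2679 regions met the rule. The regions were thus chosen by the peak positions of the 4 lists at 20% O2, and everything given below from those lists is a description. The 4 lists at 4% O2 played no part in the choice.

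All samples came from the same line, which the labels call positive for NOS1 (neuronal nitric oxide synthase), kept for 3 days in 5% CO2 at either oxygen level. The labels give no genotype change or drug, and leave it unstated whether each replicate was a culture of its own, so the spread between samples may be technical. The groups used were HIF1A at 4% O2, ARNT at 4% O2, HIF1A at 20% O2 and ARNT at 20% O2, with 2 samples each, and the 4 inputs have no list of their own. Peak lists hold no expression, so the cell type could not be checked against its markers. The 4% O2 lists held 42701 and 13655 HIF1A peaks and 24942 and 9920 ARNT peaks (replicate 1, then replicate 2). The 20% O2 lists held 5393 and 13386 HIF1A peaks and 7252 and 1808 ARNT peaks. Per the file headers, the replicate 1 samples of all groups shared a sequencing lane, ARNT replicate 2 at 20% O2 was on a different lane of it, and ARNT replicate 2 at 4% O2 came from a different flow cell. The HIF1A replicate 2 lists have no header, give positions of 1 bp, and were called against another input than the other lists.

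HIF1A and ARNT together form the transcription factor HIF-1. With ample oxygen, prolyl hydroxylases mark the HIF1A protein for destruction, and in hypoxia it escapes this and pairs with ARNT on DNA. HIF-1 is best known for switching on glycolysis, glucose and lactate transport, iron uptake and its own feedback genes. ARNT also pairs with other proteins of its class, among them the aryl hydrocarbon receptor and neuronal PAS-domain factors, so an ARNT region need not hold HIF1A.

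HIF-1 binds a core of letters ACGTG or GCGTG, read on either strand. Sequences were taken from RefSeq promoter windows (build GRCm38.p6, 250 bases before to 50 bases after each gene's start). Of the 909 co-bound regions, 54 overlapped 71 such windows of 65 genes. The stretches that region and window share are printed for glycolytic genes and for regions that ranked among the highest, since these regions lead the 4% O2 lists. Capitals mark the core, written CACGT or CACGC where it lies on the other strand, and each line runs 5′ to 3′ along the gene's strand.
Pgam1, chr19:41911683-41911834 (plus strand): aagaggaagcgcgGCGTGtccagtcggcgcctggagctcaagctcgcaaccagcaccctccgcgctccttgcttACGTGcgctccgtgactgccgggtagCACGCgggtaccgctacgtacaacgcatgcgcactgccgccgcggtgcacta
Pgk1, chrX:106186850-106187147 (plus strand): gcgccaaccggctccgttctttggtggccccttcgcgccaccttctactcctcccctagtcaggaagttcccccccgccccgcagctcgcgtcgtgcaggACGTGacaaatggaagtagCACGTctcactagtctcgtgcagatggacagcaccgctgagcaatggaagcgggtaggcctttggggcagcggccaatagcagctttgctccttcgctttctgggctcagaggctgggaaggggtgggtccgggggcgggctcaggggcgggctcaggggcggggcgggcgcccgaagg
Eno1, chr4:150236947-150237192 (plus strand): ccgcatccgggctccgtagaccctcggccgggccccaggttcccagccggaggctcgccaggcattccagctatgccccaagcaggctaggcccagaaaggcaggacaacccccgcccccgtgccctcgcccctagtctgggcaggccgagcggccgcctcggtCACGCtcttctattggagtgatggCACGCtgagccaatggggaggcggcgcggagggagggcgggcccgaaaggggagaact
Gapdh, chr6:125165724-125165840 (minus strand): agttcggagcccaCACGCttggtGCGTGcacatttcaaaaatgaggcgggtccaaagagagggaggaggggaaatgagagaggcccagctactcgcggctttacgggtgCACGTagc
Pkm, chr9:59657083-59657276 (plus strand): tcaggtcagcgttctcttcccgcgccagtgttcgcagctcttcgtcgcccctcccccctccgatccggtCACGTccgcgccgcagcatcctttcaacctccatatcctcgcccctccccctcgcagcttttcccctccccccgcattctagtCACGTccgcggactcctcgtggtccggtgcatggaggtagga
Ankrd37, chr8:45999938-46000100 (minus strand): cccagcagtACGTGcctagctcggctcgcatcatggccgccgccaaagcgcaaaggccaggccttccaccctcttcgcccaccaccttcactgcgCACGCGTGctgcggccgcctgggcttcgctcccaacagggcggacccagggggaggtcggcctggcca
Narf, chr11:121236986-121237278 (plus strand): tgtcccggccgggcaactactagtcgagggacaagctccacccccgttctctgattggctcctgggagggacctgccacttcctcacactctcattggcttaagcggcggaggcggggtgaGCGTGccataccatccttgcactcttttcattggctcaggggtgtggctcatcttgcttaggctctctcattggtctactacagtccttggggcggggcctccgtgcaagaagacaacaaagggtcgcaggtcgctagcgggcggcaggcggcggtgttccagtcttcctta
Mif, chr10:75860228-75860370 (minus strand): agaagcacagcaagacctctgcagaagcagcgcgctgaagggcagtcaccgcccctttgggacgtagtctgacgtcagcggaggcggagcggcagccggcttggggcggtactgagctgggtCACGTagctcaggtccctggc
Sh3gl1, chr17:56036653-56036887 (minus strand): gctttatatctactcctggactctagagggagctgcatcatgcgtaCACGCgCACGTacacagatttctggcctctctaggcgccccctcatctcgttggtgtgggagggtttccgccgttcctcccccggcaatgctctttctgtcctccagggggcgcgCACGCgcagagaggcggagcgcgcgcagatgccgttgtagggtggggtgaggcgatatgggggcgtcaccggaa

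The Pgam1 stretch held 3 cores, and the Pgk1 stretch held 2 on opposite strands. Enolase (Eno1) and pyruvate kinase (Pkm) had 2 cores each and Gapdh had 3. The Ankrd37 stretch held 3, of which 2 overlap. The stretches of Narf and Mif held 1 core each, and that of Sh3gl1 held 3. A core was present in the shared stretch of 36 of the 71 windows.

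Over the whole windows, ACGTG or GCGTG was found in 47 of the 71 (66.2%, 95% Wilson interval 54.6 to 76.1). The 71 windows come from 54 regions and some overlap, so the same core can count more than once and the intervals are too narrow. A core was found in 63.6% of the 528 windows over ARNT regions without HIF1A, in 86.0% of the 2207 windows over regions co-bound at 4% O2, and in 43.8% of all 32851 windows. Base composition moved with this share. The median GC content was 60.3% in the windows of co-bound regions, 58.7% for ARNT regions without HIF1A and 52.7% over all windows, and the part of composition in the difference was not tested. The E-box CACGTG, a palindrome that contains ACGTG on both strands and is bound by many factors of the same fold, occurred in 15 of the 71 windows (21.1%, interval 13.2 to 32.0). Some of the 15 repeat an E-box, as do the overlapping windows of Prelid1 and Rab24. In others, as at Mrps18c and Helq, the E-box lies outside the stretch that region and window share. The E-box occurred in 6.06% of the windows over ARNT regions without HIF1A (4.33 to 8.43) and in 7.15% of all windows. In the windows over regions co-bound at 4% O2 it was 18% (16.4 to 19.6), and over HIF1A regions without ARNT 13.3% (9.69 to 17.9), and both intervals overlap that of the co-bound regions of 20% O2. A pair of stretches shows this form, chosen after the matches were seen, from Ccdc126 with 1 E-box and from Amdhd2 with 3 E-boxes.
Ccdc126, chr6:49319132-49319323 (plus strand): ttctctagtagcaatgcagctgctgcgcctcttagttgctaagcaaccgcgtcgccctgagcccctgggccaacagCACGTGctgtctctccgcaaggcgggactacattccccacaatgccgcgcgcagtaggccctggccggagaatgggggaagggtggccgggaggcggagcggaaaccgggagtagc
Amdhd2, chr17:24163718-24163833 (minus strand): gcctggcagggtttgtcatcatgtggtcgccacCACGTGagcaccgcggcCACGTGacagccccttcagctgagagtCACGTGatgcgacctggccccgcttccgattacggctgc

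At 4% O2 nearly all of the co-bound regions had a peak in the replicate 1 lists, and far fewer did in the replicate 2 lists. For HIF1A at 4% O2, 903 of the 909 regions (99.3%) had a peak in replicate 1 and 645 (71.0%, interval 67.9 to 73.8) in replicate 2. For ARNT at 4% O2, 879 (96.7%) had a peak in replicate 1 and 197 (21.7%, interval 19.1 to 24.5) in replicate 2. List length moved with these shares, since at 4% O2 the replicate 1 list was the longer for both antibodies. For ARNT at 4% O2 the flow cell also differs between the replicates, and for HIF1A the input and the combining of runs do, and the part of each in the difference was not tested.

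The most common pattern, in 463 regions (50.9%, against 32.5% of all ARNT regions at 20% O2), was a peak in every 4% O2 list but ARNT replicate 2. A further 217 regions (23.9%) had peaks in both replicate 1 lists and in neither replicate 2 list, near the 25.9% of all ARNT regions. A peak in all 4 lists was held by 176 (19.4%, interval 16.9 to 22.1). The share of all ARNT regions at 20% O2 with a peak in all 4 lists was 19.7%, so this share of the co-bound regions is at the background. Without ARNT replicate 2 at 4% O2, the share with a peak in every remaining list was 70.3%. A peak in none of the 4 lists was the case for 4 regions (0.440%), against 1.76% of all ARNT regions at 20% O2, and without HIF1A replicate 1 at 4% O2 the share was 2.64%.

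Missing peaks were mostly not near misses. Of the 712 co-bound regions without a peak in ARNT replicate 2 at 4% O2, 17 had one within 200 bp and 34 within 1 kb. Of the 264 without a peak in HIF1A replicate 2 at 4% O2, 36 had one within 200 bp, in a list whose peaks are single positions. Presence was also read with lists of equal length. When each of the 8 lists was cut to its 1808 highest peaks, the length of the shortest, the rule gave 297 regions, and 61.6% of these had no peak in any 4% O2 list. The cut also changes which regions meet the rule and raises the lowest score kept in the longer lists, so the part of list length alone was not tested.

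Compared with the 738 ARNT regions that had no HIF1A region at 20% O2, the co-bound regions had a HIF1A peak at 4% O2 more often and an ARNT peak in replicate 2 less often. Peaks in both HIF1A lists at 4% O2 stood at 645 co-bound regions (71.0%) and at 223 ARNT regions without HIF1A (30.2%), against 52.7% of all ARNT regions. Peaks in both ARNT lists at 4% O2 stood at 197 co-bound regions (21.7%) and at 332 ARNT regions without HIF1A (45.0%), against 32.1% of all ARNT regions. The direction of the ARNT contrast rests on replicate 2: in ARNT replicate 1 alone, 96.7% of co-bound regions and 93.2% of ARNT regions without HIF1A had a peak. With a rank of 0 where there was no peak, the median percentile rank in HIF1A replicate 1 at 4% O2 was 88.9 for co-bound regions and 56.7 for ARNT regions without HIF1A. In HIF1A replicate 2 it was 45.6 and 0, in ARNT replicate 1 it was 81.0 and 86.0, and in ARNT replicate 2 it was 0 for both. The percentile rank is the percent of a list's peaks whose score is no higher, with 100 for the highest. The mean difference was 18.2 ± 24.6 (SD over 4 lists), positive in 2 of 4 lists, and an exact two-sided sign permutation test over the 4 lists gave p = 0.5. With differences of these sizes, of which 1 is 0, the smallest p is 4 of 16 arrangements. The difference in the percent with a peak was 9.57 ± 26.9 percentage points (SD, n = 4 lists), positive in 3 of 4 lists, with an exact permutation p = 0.625, where the smallest possible is 2 of 16 arrangements.

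**Figure D1:**
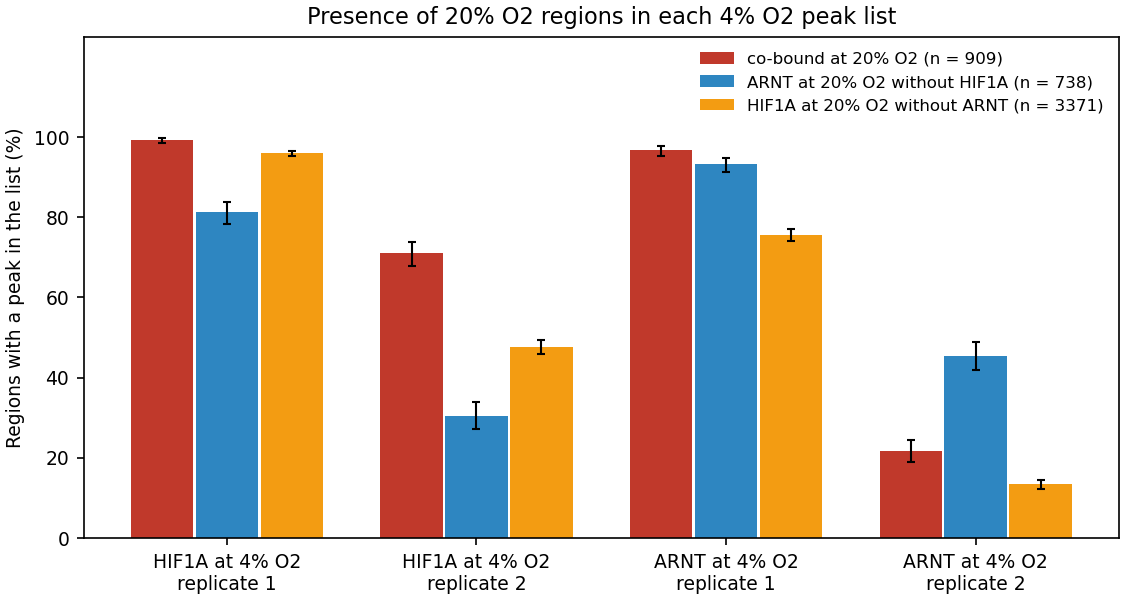
Percent of regions with a peak in each 4% O2 list, for regions co-bound at 20% O2, ARNT regions without HIF1A and HIF1A regions without ARNT. Bars are shares of regions and error bars are 95% Wilson intervals, which cover the counting of regions only. Co-bound regions are the most often present in the HIF1A replicate 2 list (71.0%), and in the ARNT replicate 2 list they stand at 21.7% against 45.4% of ARNT regions without HIF1A.

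A co-bound region of 4% O2 was overlapped by 198 of the 909 (21.8%, interval 19.2 to 24.6). The share was 23.1% for all ARNT regions at 20% O2 and 24.8% for ARNT regions without HIF1A, so 21.8% is near the background. In the other direction, 198 of the 5768 co-bound regions of 4% O2 (3.43%) held such a region, a share limited by the unequal sizes of the sets. The 198 regions of 4% O2 that hold a region co-bound at 20% O2 ranked higher than the other 5570. Their median rank was 97.3 against 91.3 in HIF1A replicate 1, 88.7 against 76.6 in HIF1A replicate 2, 95.3 against 78.7 in ARNT replicate 1 and 72.5 against 66.9 in ARNT replicate 2. The share was largest at the very top: of the 10 co-bound regions of 4% O2 with the highest mean rank, 5 held a region co-bound at 20% O2, of the first 100 there were 17, and of the first 500 there were 49.

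Among the 909, the regions that ARNT replicate 2 at 4% O2 also held were the higher ranked in the other 4% O2 lists. The 197 regions with a peak in both ARNT lists at 4% O2 had a median rank of 97.3 in HIF1A replicate 1 and of 89.9 in HIF1A replicate 2 at 4% O2. The other 712 had 86.8 and 52.9 in the same lists. In ARNT replicate 1 at 4% O2 the medians were 95.6 for the 197 and 76.4 for the 712. At 20% O2 the order was not the same in every list, and in HIF1A replicate 1 it was 76.5 for the 197 and 80.3 for the 712. Across co-bound regions with a peak in both lists, Spearman's rho at 4% O2 was 0.800 between the HIF1A replicates (645 regions), 0.774 between the ARNT replicates (197) and 0.691 between HIF1A and ARNT in replicate 1 (877). At 20% O2 it was 0.564 between the HIF1A replicates (886 regions), 0.578 between the ARNT replicates (909) and 0.421 between HIF1A and ARNT in replicate 1 (909). For HIF1A and ARNT in replicate 2 it was 0.871 at 4% O2 (176 regions) and 0.297 at 20% O2 (886). Between 4% and 20% O2 it was 0.287 for HIF1A replicate 1 (903 regions), 0.457 for HIF1A replicate 2 (634), 0.396 for ARNT replicate 1 (879) and 0.175 for ARNT replicate 2 (197). These are descriptions across regions, which share libraries and inputs. A mean rank over 90 was reached by 79 regions at 4% O2 and by 85 at 20% O2, and 23 regions were in both sets. Because the lists differ in length, a higher or lower rank at 4% O2 is not a change in binding.

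**Figure D2:**
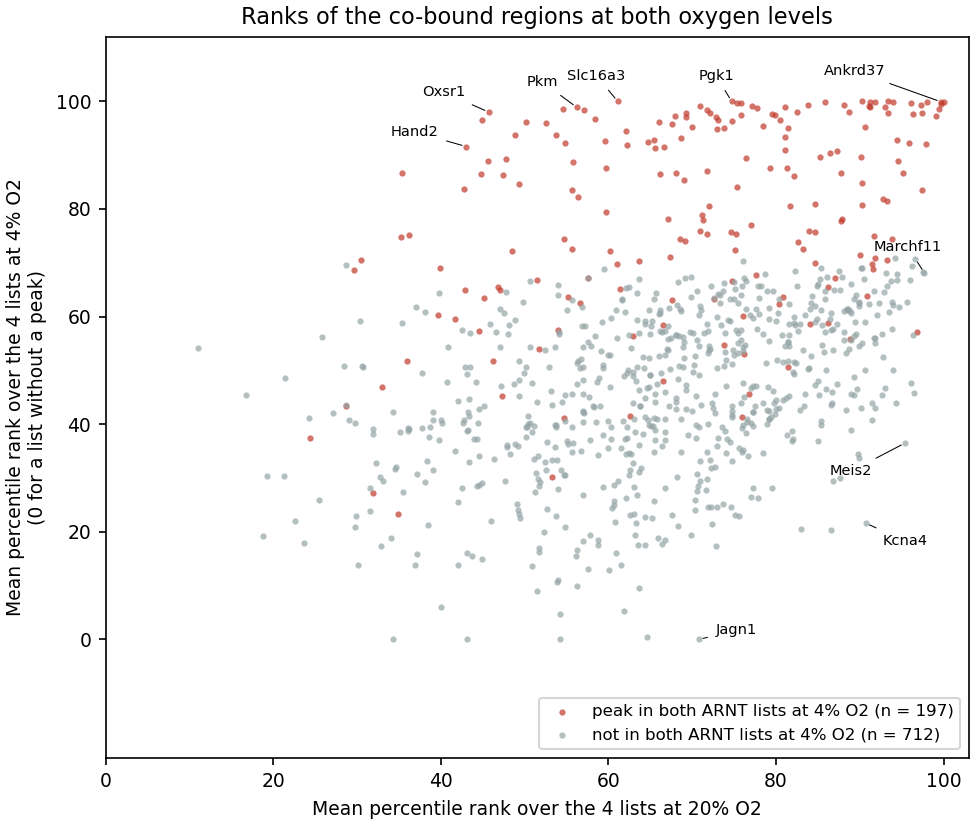
Mean percentile rank of each of the 909 co-bound regions over the 4 lists at 4% O2 (vertical axis) and over the 4 lists at 20% O2 (horizontal axis), with red for the 197 regions with a peak in both ARNT lists at 4% O2 and grey for the other 712. The grey points stay below the highest ranks at 4% O2, since at least 1 of their lists counts as 0, while the red points reach 100 over a wide range of ranks at 20% O2.

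The gene lists were chosen with earlier results of these data known, so the counts by list are descriptions. The list of glycolysis and glucose handling had the most genes near a co-bound region. Of 26 genes on that list, 7 had a co-bound region within 5 kb of a gene end, where 195 of 21631 protein-coding genes (0.901%) did. The count was 4 when each list was cut to its 1808 highest peaks, and 3 with only the peaks above each list's median score. Regions co-bound at 4% O2 lay near 21 of the 26, against 16.4% of all protein-coding genes. None of the 26 had an ARNT region without HIF1A (3.52% of all genes), or a HIF1A region without ARNT (3.23%), within 5 kb at 20% O2. At shares this small a list of 26 genes can readily hold none, so no absence is shown. The 7 were phosphofructokinase Pfkl, Gapdh, phosphoglycerate kinase Pgk1, phosphoglycerate mutase Pgam1, Eno1, Pkm and the lactate exporter Slc16a3 (MCT4). All 7 regions had a peak in every list at 4% O2, with mean ranks of 98.9 (Pkm) to 100 (Pgam1, Pfkl, Pgk1 and Slc16a3).

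At 20% O2 the same 7 regions were spread widely in HIF1A replicate 1 and ARNT replicate 2. Their ranks ran between 20.4 (Pkm) and 89.8 (Eno1) in HIF1A replicate 1, between 80.4 (Slc16a3) and 97.9 (Pgk1 and Eno1) in ARNT replicate 1, and between 17.4 (Pkm) and 94.2 (Pgam1) in ARNT replicate 2. In HIF1A replicate 2, called on combined runs against the other input, all 7 lay between 99.5 and 100. The region at Pgk1 (chrX:106186806-106187147, 124 bp from the gene end) shows this spread, with ranks of 27.3 and 100 in the HIF1A lists and 97.9 and 73.7 in the ARNT lists at 20% O2. In the HIF1A lists its score was 1573.0 (replicate 1) and 1402.4 (replicate 2) at 4% O2, against 7.08 and 469.4 at 20% O2. In the ARNT lists it was 955.1 (replicate 1) and 1729.2 (replicate 2) at 4% O2, against 37.8 and 14.5 at 20% O2. The score is the authors' own value for each peak and is read within its list. Its scale is not named and the highest score differs between lists, so a lower score at 20% O2 is not a measure of weaker binding. The 955.1 is the highest score of the ARNT replicate 1 list at 4% O2, and the 7.08 lies under the median score of the HIF1A replicate 1 list at 20% O2.

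Slc16a3 had the lowest ARNT replicate 2 rank at 20% O2 after Pkm among these genes. Its region (chr11:120950952-120951080) lay inside the gene, 2532 bp from its nearer end, and ranked 19.7 in that list and 99.9 in ARNT replicate 2 at 4% O2. The region at Pgam1 (chr19:41911683-41911834) had the highest score of both HIF1A lists at 4% O2, 1749.7 in replicate 1 and 1687.3 in replicate 2. At 20% O2 it scored 18.4 and 549.9 in the HIF1A lists.

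Other genes of the hypoxia response with a co-bound region within 5 kb of an end were few in number. Of all protein-coding genes 0.901% had one, and the lists below held 1 of 15 and 2 of 19 genes. Both are above that share, though on small counts and on lists chosen with earlier results of these data known. On the list of 15 oxygen-sensing and feedback genes, Ankrd37, an ankyrin-repeat gene known as a HIF-1 target, was the 1 with a co-bound region within 5 kb of an end. Its region (chr8:45999938-46000215) ranked 99.9 or above in all 4 lists at 4% O2 and 99.4 or above in all 4 at 20% O2. Egln3, the prolyl hydroxylase that acts back on HIF1A, held a co-bound region inside the gene, 11758 bp from its end, which ranked 99.8 or above at 4% O2. At 20% O2 the Egln3 region had ranks of 72.5 and 100 for HIF1A and 98.6 and 96.0 for ARNT. Also among the 12 highest at 4% O2 were regions near Mgat3, a glycosyltransferase gene, and Slc4a8, a bicarbonate transporter gene, with ranks of 99.4 or above in all 4 lists at 4% O2. Their ARNT replicate 2 ranks were 99.8 (Mgat3) and 99.4 (Slc4a8) at 4% O2, against 52.9 and 24.6 at 20% O2. Among 19 genes of vessels, pH and iron, the transferrin receptor Tfrc and the cytokine Mif had a region. The Tfrc region had ranks of 99.5, 98.5, 98.9 and 97.2 in the HIF1A and ARNT lists at 4% O2, against 58.8, 99.5, 10.2 and 49.9 at 20% O2.

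The other lists reported had at most 1 gene each with a co-bound region within 5 kb, where 0.901% of all protein-coding genes did. In the lists with 1 gene the share is above this, on a count too small to judge. Ddit4, which restrains mTOR signalling, was the 1 of 14 mitophagy and mitochondrial adaptation genes, with ranks of 97.4 in HIF1A replicate 1, 95.6 in ARNT replicate 1 and 19.8 in ARNT replicate 2 at 4% O2. The lysyl oxidase Loxl3 was 1 of 15 collagen and matrix genes, though its region lay inside Aup1 and Htra2, 7 bp from an end of Htra2. The cyclic-GMP-dependent kinase Prkg1 was 1 of 20 nitric oxide signalling genes. Slc18a1, the vesicular monoamine transporter of chromaffin cells, was 1 of 18 sympathoadrenal genes, and Mxd1, which dimerises with MAX, was 1 of 20 MYC-related genes. The Prkg1 region had no peak in ARNT replicate 2 at 4% O2, and its HIF1A replicate 2 rank there was 4.77. No co-bound region lay within 5 kb of any of 21 clock and E-box factor genes, 21 immediate early genes, 20 JmjC and TET demethylase genes, 19 lysosome genes, 20 cell division genes, 50 ribosomal protein genes or 32 genes of other tissues. With 0.901% of all protein-coding genes near such a region, each list this short is likely to hold none, so no absence is shown. ARNT regions without HIF1A lay near 9 of the cell division genes, against 3.52% of all protein-coding genes.

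The highest regions at 20% O2 were only partly those of the hypoxia genes. The region with the highest mean rank at 20% O2 lay 292 bp from an end of Narf, which encodes a prelamin A binding protein (chr11:121236611-121237278). It ranked 99.8 or above in all 8 lists, and its 400.7 and 238.8 were the highest scores of both ARNT lists at 20% O2. The HIF1A score there was 1380.8 in replicate 1 and 1157.7 in replicate 2 at 4% O2, and 153.4 and 1017.9 at 20% O2, each read within its list. Also among the 12 highest at 20% O2 were regions at Slc26a8, an anion transporter gene, and at Sh3gl1 (endophilin A2), both over 94 in all 8 lists. Inside Slc18a1, 11882 bp from its end, a region ranked 93.0 or above in all 8 lists, and a region 76829 bp from the chromatin remodeller Chd2 ranked 98.8 or above in all 8 lists.

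Others of these 12 were absent from ARNT replicate 2 at 4% O2. The regions nearest to Marchf11 and Fbxl7, both genes of ubiquitin ligases on chromosome 15, had ranks of 96.0, 81.1 and 95.3 (Marchf11) and of 97.0, 78.0 and 97.8 (Fbxl7) in HIF1A replicate 1, HIF1A replicate 2 and ARNT replicate 1 at 4% O2. At 20% O2 both were at 94.0 or above in all 4 lists. Of the 85 regions with a mean rank over 90 at 20% O2, 46 (54.1%) were without a peak in at least 1 ARNT list at 4% O2, where 712 of all 909 (78.3%) were. The region 190609 bp from Fbxo8 ranked 72.1 in ARNT replicate 2 at 4% O2 and 93.4 in ARNT replicate 2 at 20% O2. A region 58954 bp from Ntrk3, the receptor for neurotrophin-3, ranked 64.4 in ARNT replicate 2 at 4% O2 and 96.7 in ARNT replicate 2 at 20% O2. A further 2 of the 12 were neighbouring stretches of chromosome 2 (chr2:98662300-98662411 and chr2:98662558-98662741), 1030683 and 1030977 bp from Lrrc4c, the nearest gene. They ranked 95.9 or above in all 8 lists, and this part of chromosome 2 is known from mouse ChIP-seq as a satellite repeat that gathers reads in most samples, inputs included.

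**Figure D3:**
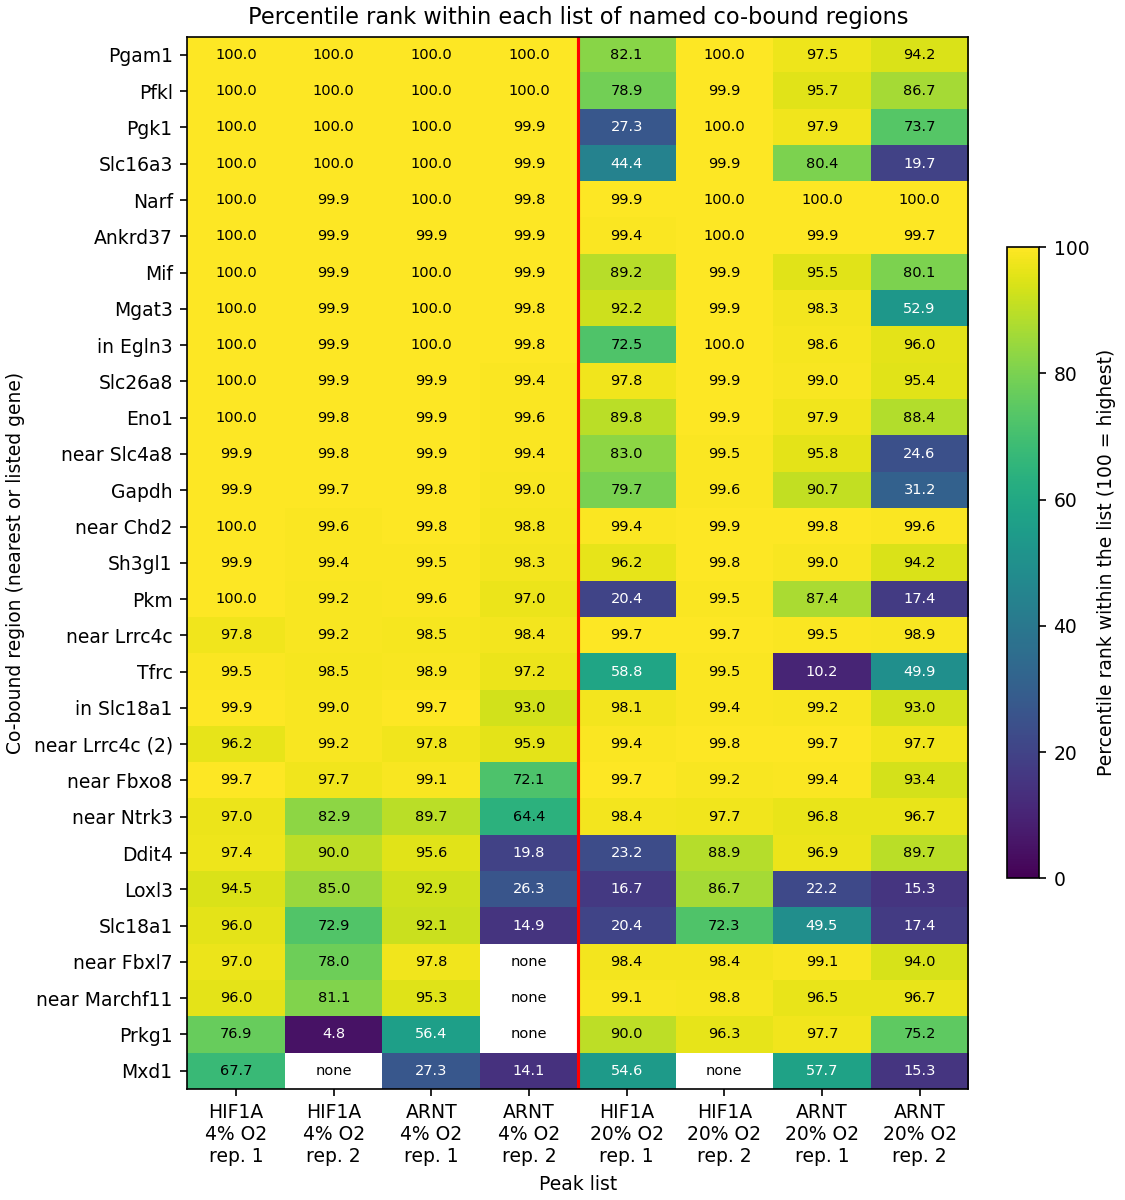
Percentile rank in each of the 8 lists, 4% O2 left of the red line and 20% O2 right of it, for the co-bound regions that ranked highest at either oxygen level or lay near a gene of the lists reported, with the highest mean rank at 4% O2 at the top. White cells marked none have no peak. The glycolytic regions are near 100 in all 4 lists at 4% O2 and in HIF1A replicate 2 at 20% O2, while their ranks in HIF1A replicate 1 and ARNT replicate 2 at 20% O2 reach down to 20.4 and 17.4.

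The 4 co-bound regions without any peak at 4% O2 lay inside Jagn1, 7883 bp from Cryzl2, inside Taf3, a TFIID subunit gene, and 179259 bp from Dtnbp1 (dysbindin). At 20% O2 the Jagn1 region had HIF1A ranks of 44.1 and 77.2 and ARNT ranks of 93.6 and 68.3, so it was not at the bottom of these lists. It was the highest of the 4, with a mean rank of 70.8 at 20% O2. The other mean ranks were 54.2 (Cryzl2), 43.1 (Taf3) and 34.3 (Dtnbp1), and the Dtnbp1 region ranked 4.15 in ARNT replicate 2. HIF1A without ARNT at 4% O2 was seen at 26 regions (2.86%), against 2.91% of all ARNT regions at 20% O2, so this share is at the background. Of the 26, 6 had both HIF1A lists (0.660% of the 909, against 0.425% of all ARNT regions). ARNT without HIF1A at 4% O2 was seen at 2 regions (0.220%), against 6.86% of all ARNT regions. The highest of the 6 at 20% O2 was a region 134449 bp from the homeobox gene Meis2, with HIF1A ranks of 86.6 and 59.3 at 4% O2 and ranks of 99.3, 98.3, 96.8 and 87.2 at 20% O2. The next were regions nearest to Cfap126 (within 1 kb of tRNA genes), Timp4 (inside Syn2), the RNA helicase gene Dhx33 and Gm15501, with HIF1A replicate 1 ranks of 75.6 (Gm15501) to 88.1 (Timp4 and Dhx33) at 4% O2. No co-bound region had both ARNT lists and neither HIF1A list at 4% O2.

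The regions whose mean rank was most above its value at 20% O2 had Oxsr1, Tspan2, Kif26a, Hand2, Itpripl1 and Got2 as nearest genes. Their distances to a gene end ran from 218 bp (Got2) to 151763 bp (Kif26a). Hand2 is a factor of sympathoadrenal development, Oxsr1 a kinase that controls ion transporters and Got2 the mitochondrial aspartate aminotransferase. The Hand2 region had ranks of 98.5, 89.5, 97.6 and 80.7 at 4% O2, against 39.1, 93.4, 29.8 and 9.57 at 20% O2 (HIF1A replicates, then ARNT replicates). The opposite end held regions nearest to Jagn1, Kcna4, Ranbp17, Dock3, Thap1 and Meis2, each without a peak in at least 2 of the 4 lists at 4% O2. Those of Jagn1, Ranbp17 and Dock3 lay inside these genes, and those of Thap1 and Meis2 lay 187661 and 134449 bp away. The region 283375 bp from the potassium channel gene Kcna4 had replicate 1 ranks of 30.7 (HIF1A) and 55.7 (ARNT) at 4% O2. At 20% O2 these ranks were 96.4 and 92.2.

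Most of the co-bound regions lay away from genes' ends. Of the 909, 78 (8.58%, interval 6.93 to 10.6) were centred within 1 kb of an end of a protein-coding gene, 424 (46.6%) inside a gene and 407 (44.8%) between genes. Of all ARNT regions at 20% O2, 32.1% lay within 1 kb of an end, and of the ARNT regions without HIF1A, 61.1% (57.5 to 64.6). HIF1A regions without ARNT were at 8.51%, and regions co-bound at 4% O2 at 37.8%. The median distance to the nearest end was 40477 bp for the co-bound regions and 219 bp for ARNT regions without HIF1A. The value rests in part on HIF1A replicate 1 at 20% O2: without that list, 1158 regions met the rule and 20.9% of them lay within 1 kb of an end.

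**Figure D4:**
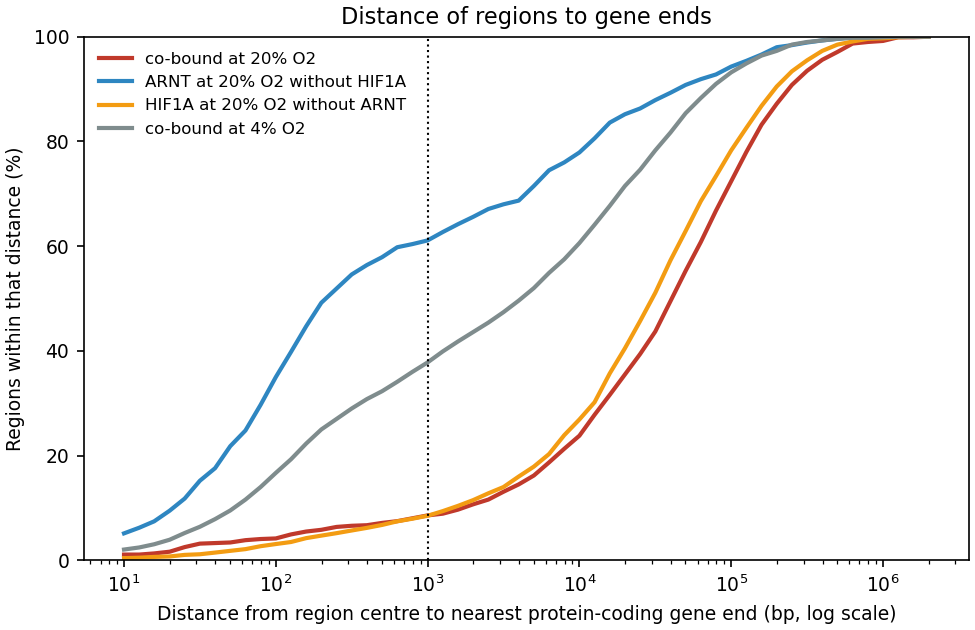
Cumulative percent of regions (vertical axis) within a given distance of the nearest end of a protein-coding gene (horizontal axis, bp, log scale), for 4 sets of regions, with a dotted line at 1 kb. At 1 kb the curve of regions co-bound at 20% O2 stands at 8.58%, close to the 8.51% of HIF1A regions without ARNT and below the 61.1% of ARNT regions without HIF1A.

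Presence in ARNT replicate 2 at 4% O2 was highest near gene ends. Of the 78 co-bound regions near a gene end, 45 (57.7%) had a peak in that list, against 16.5% of the 424 inside genes and 20.1% of the 407 between genes. In HIF1A replicate 2 at 4% O2 the regions near ends had the lowest share, with 64.1% near ends, 70.3% inside genes and 73.0% between genes. Among the 197 regions with a peak in both ARNT lists at 4% O2, 22.8% (17.5 to 29.2) lay within 1 kb of an end, and among the other 712, 4.63% (3.32 to 6.44). The replicate 1 lists at 4% O2 held between 96.2% and 99.5% of the regions in each of the 3 locations.

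**Figure D5:**
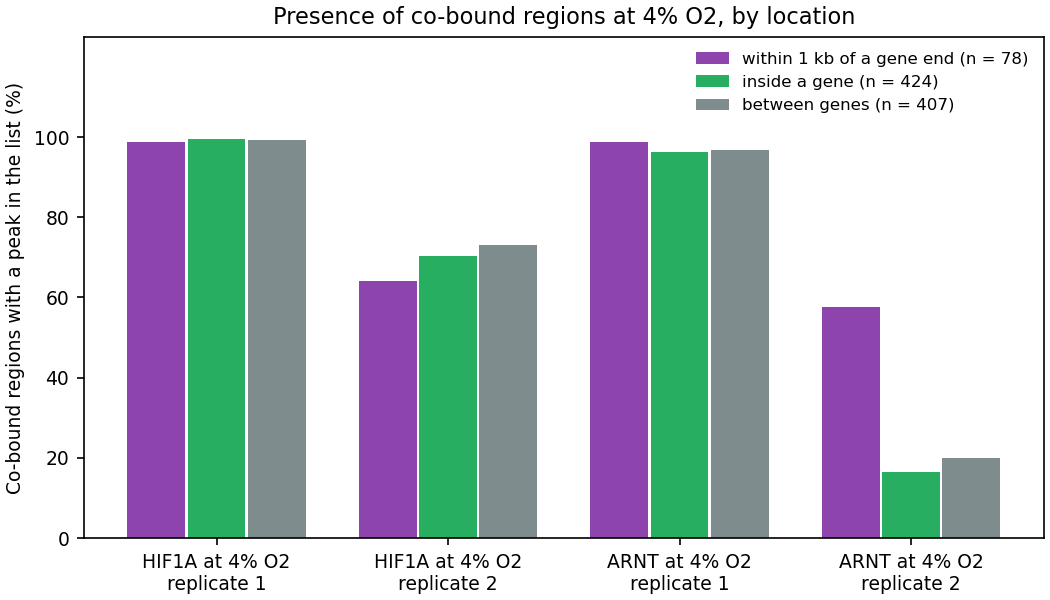
Percent of co-bound regions with a peak in each 4% O2 list, split by whether the region is centred within 1 kb of a gene end (78 regions), inside a gene (424) or between genes (407). The locations are nearly level in the replicate 1 lists, and in ARNT replicate 2 the regions at gene ends stand at 57.7%, above the other locations.

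The rule has a threshold of 1 bp of overlap, and few regions lay near it. The overlap with the HIF1A region had a median of 191 bp, with the region itself 228 bp wide at the median, and the shortest overlaps were 64 bp at Mxd1, 83 bp at Taf3 and 89 bp near AW549877. The Mxd1 region had ranks of 67.7 in HIF1A replicate 1, 27.3 in ARNT replicate 1 and 14.1 in ARNT replicate 2 at 4% O2 and no peak in HIF1A replicate 2. Just outside the rule, 8 ARNT regions had a HIF1A region within 500 bp, the nearest at 136 bp (near Lrmda), 149 bp (Tbpl1) and 204 bp (Daam1). The Lrmda region had ranks of 90.9 and 30.2 for HIF1A and 57.1 for ARNT replicate 1 at 4% O2. In 23 of the 909, the HIF1A replicate 2 position lay in the HIF1A region but not in the ARNT region itself.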

How the data were processed

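Peak lists of 8 ChIP samples were used. The submitters' processing notes name build mm10 and the tools BWA, Picard and MACS2, without versions; settings were not given in the sources at hand. As the deposited lists are named, each ChIP sample has its own peak calls: HIF1A replicate 2 against input 5, all others against input 4. Per the labels, the reads of HIF1A replicate 2 combine a pair of runs. Each deposited peak has a score given by the authors; no header names its scale, so it was used only to rank and describe peaks within a list. The lists hold no read counts, so depth is unknown, and Wilson intervals (95%) cover the counting of regions only. A shared replicate number does not mark a shared culture in the labels, though the replicate 1 samples shared a lane, per the file headers.

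With Python 3.11.15, numpy 2.4.6 and scipy 1.17.1, peaks were merged and overlapped by at least 1 bp, and a region took the rank of its highest peak in a list. Steps were tested on simulated data. Gene ends came from RefSeq (GRCm38.p6, 21631 protein-coding genes), and a region is named by the nearest. Of 370 entries in 16 gene lists, 368 matched, 7 of them by an alias. Promoter windows of chromosome 18 were not used here, which holds 7 of the regions.

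The members, the gene lists and the tests were chosen with earlier results of these data known. The text names the 12 regions of highest mean rank at each oxygen level, those without any peak at 4% O2, the highest with 1 antibody there, the 6 with the largest rank difference in each direction, genes of the lists within 5 kb (1 list is not reported here), and regions nearest the overlap threshold. Overlap, list length, score threshold, merging (100 bp), window form (150 bp), distance and each list were varied.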

Additional observations from a re-analysis of the deposited data

How the results depend on the processing

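Requiring overlap of at least 50% of the shorter interval, merging peaks up to 100 bp apart or widening the HIF1A replicate 2 positions to 150 bp moved none of the 9 results rerun (number of regions, presence shares, ranks, share at gene ends and glycolysis genes) by more than its counting interval, its spread over lists or 1.5 times. Motif shares, correlations, other gene lists and presence by location were not rerun. Cutting every list to its 1808 highest peaks gave 297 co-bound regions, of which 12.8% had a peak in all 4 lists at 4% O2, 61.6% in none, 14.1% in both ARNT lists and 17.8% in both HIF1A lists; the median rank was 0, its difference from ARNT regions without HIF1A was 0, and 4 glycolysis genes had a region. Keeping only peaks above each list's median score gave 320 regions, 61.9% in both HIF1A lists and 3 glycolysis genes. Within 5 kb of a gene end lay 16.2% of the regions, and within 20 kb 35.5%.

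Leaving out each list in turn gave 964 (without ARNT replicate 1 at 20% O2) to 2679 regions (without ARNT replicate 2 at 20% O2). The share in all remaining 4% O2 lists ran between 14.2% and 70.3%, that in none between 0.415% and 2.64% (without HIF1A replicate 1 at 4% O2), and that within 1 kb of a gene end between 7.05% and 20.9%. The share in the ARNT lists at 4% O2 ran between 16.9% and 96.7% (without ARNT replicate 2) and that in the HIF1A lists between 58.2% and 99.3% (without HIF1A replicate 2); both shares were added to the alternatives after seeing the data. The rank difference stayed between 9.09 and 25.9, with no exact permutation p below 0.25. With the replicate number as a block, the rank difference was 13.6 in replicate 1 and 22.8 in replicate 2, with a mean of 18.2 and an exact permutation p = 0.5, the smallest that 2 blocks allow. Depth cannot be judged from peak lists, so a missing peak does not show that a site was unbound.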

Other observations

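The co-bound regions were unevenly spread over the genome, a pattern looked for after the values were seen and not tested. Chromosome 15 held 88 of the 909, or 8.47 per 10 Mb, against 3.46 per 10 Mb over all chromosomes, while chromosome X held 6, or 0.352 per 10 Mb. The same chromosomes had 15.8 and 2.29 HIF1A regions without ARNT per 10 Mb, against 12.8 overall. The copy number of each chromosome in these cells, and the input reads, were not analysed here, and their part in these counts was not tested.

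Some genes carried several co-bound regions. Slit3, which encodes a secreted guidance ligand of Robo receptors, held 8 inside its 587.1 kb, of which 7 had peaks in both HIF1A lists and 3 in both ARNT lists at 4% O2. Of all 909 regions, 71.0% and 21.7% did. The receptor kinase gene Alk held 4, as did Aopep, Atg10, Clpb and Prickle2, and none of these 20 regions had a peak in both ARNT lists at 4% O2. Among all 909 regions, 712 (78.3%) were without a peak in both, so most regions of any gene would be. Of the other genes with a region inside, 300 had 1, 46 had 2 and 13 had 3. The megabase of chromosome 15 from position 62000001, with Gsdmc and Myc as the nearest genes, held 6 co-bound regions, 5 of them with peaks in both HIF1A lists at 4% O2. As given above, 71.0% of all 909 regions had these.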
